A study of Mus musculus with 8 samples.

Results

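The genes that make and answer hepcidin, the liver hormone of iron balance, were followed in livers of mice with a hepatocyte deletion of Opa1, the GTPase that fuses the inner mitochondrial membrane. They were chosen by name: Hamp and Hamp2, which encode hepcidin and its close copy; Bmp6 and Smad7, a ligand and an inhibitor of the signal that drives Hamp; the transferrin receptors Tfrc and Tfr2; the iron transporters Slc11a2 and Slc40a1; and the ferritin subunits Fth1 and Ftl1. These are 10 of the 35976 genes in the table, and all 10 were among the 14036 genes with enough reads to be tested. Each had reads in each library. RNA of whole liver was sequenced in 8 libraries.

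The control group (CTRL, titled wild type) had 5 libraries, and the group with the hepatocyte deletion (OPA1_LKO) had 3. All 8 came from mice given a High Fat Diet, so no comparison across diets can be made. The labels do not give the age or sex of the mice, the driver of the deletion, the exons removed, or whether each library is a separate animal. The spread that the p-values rest on is thus that of these libraries and may be technical.

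Hepcidin is secreted by hepatocytes and binds ferroportin, the iron exporter encoded by Slc40a1, which is then taken into the cell and degraded, so that less iron leaves macrophages, gut cells and hepatocytes. Transcription of Hamp is raised by bone morphogenetic proteins (BMPs), chiefly from sinusoidal endothelial cells, through SMAD factors at the promoter, and by interleukin 6 through STAT3. Inside cells, iron regulatory proteins bind hairpins called iron-responsive elements (IREs): in a 5′ UTR the bound protein blocks translation, and in a 3′ UTR it protects the transcript from decay.

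Hamp and Hamp2 lie beside each other on chromosome 7, at 30942368 to 30944029 and 30922372 to 30924181 (GRCm38.p6), 18186 bases apart. The 250 bases before each start are shown because matches to sites for the BMP and STAT3 inputs named above lie in this stretch of Hamp. They are from RefSeq, on the minus strand, at chr7:30944030-30944279 for Hamp and chr7:30924182-30924431 for Hamp2. Bases further upstream were not searched. Capitals mark matches on either strand to GGCGCC, the BMP response element, to TTCNNNGAA, a STAT site, and to TGAGTCA, an AP-1 site.
Hamp: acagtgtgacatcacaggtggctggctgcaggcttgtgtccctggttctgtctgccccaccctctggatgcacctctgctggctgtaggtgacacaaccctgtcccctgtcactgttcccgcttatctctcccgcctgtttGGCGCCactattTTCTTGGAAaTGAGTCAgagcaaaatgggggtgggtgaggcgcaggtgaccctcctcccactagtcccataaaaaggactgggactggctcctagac
Hamp2: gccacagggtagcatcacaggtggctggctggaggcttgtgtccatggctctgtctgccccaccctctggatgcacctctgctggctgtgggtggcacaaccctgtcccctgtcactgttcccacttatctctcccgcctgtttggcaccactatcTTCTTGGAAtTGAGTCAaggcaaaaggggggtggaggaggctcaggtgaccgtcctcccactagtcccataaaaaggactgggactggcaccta
In Hamp the matches lay at -109 to -104, -97 to -89 and -87 to -81, counted from the start site, and none overlapped another. Hamp2 held the STAT match at -94 to -86 and the AP-1 match at -84 to -78. Its bases aligned to the BMP response element of Hamp were GGCACC, which is the substitution G4A counted from the first base of the site. Of 32851 such windows of 250 bases in the RefSeq table, 9.59% held GGCGCC, 7.02% the STAT letters and 4.46% the AP-1 letters. Among the 7 genes of the set with a window, GGCGCC occurred in Hamp and Tfrc, and the other 2 motifs in Hamp and Hamp2. The pair was identical at 227 of 247 aligned bases (91.9%) of these windows and at 388 of 410 aligned bases (94.6%) of the transcripts, where the longest identical run was 87 bases. The split of reads between Hamp and Hamp2 is therefore uncertain.

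IREs were found in 5 of the genes and are shown because they sort the set by the kind of control (GENCODE M21 transcripts, GRCm38). Capitals mark the loop, CAGTG followed by A, C or T.
Fth1, 5′ UTR, chr19:9982733-9982759, plus strand: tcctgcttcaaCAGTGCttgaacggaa
Ftl1, 5′ UTR, chr7:45459780-45459806, minus strand: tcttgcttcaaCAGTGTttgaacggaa
Slc40a1, 5′ UTR, chr1:45925466-45925492, minus strand: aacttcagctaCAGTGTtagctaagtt
Slc11a2, 3′ UTR, chr15:100395153-100395180, minus strand: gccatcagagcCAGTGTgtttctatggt
Tfrc, 3′ UTR, the first of 4, chr16:32631220-32631246, plus strand: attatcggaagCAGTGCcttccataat
The pattern searched was a C, 5 bases, the loop and then 5 bases that pair with those before it, where G with T also counted as a pair. A bulge of 1 base was allowed on the far arm, which among these sites only that of Slc11a2 used. Of 21877 coding genes, 316 (1.44%) held such a pattern in a UTR. The Slc11a2 site is in the transcript NM_001146161, and no match was found in its other annotated transcript searched, NM_008732. No match was found in the transcripts searched of Hamp, Hamp2, Tfr2, Bmp6 or Smad7. For Tfr2 these were NM_015799 and NM_001289507, and for Smad7 NM_001042660. The main forms, XM_006504591.3 of Tfr2 and XM_006525703.2 of Smad7, were not searched. They held on average 69.6% and 67.7% of their gene's TPM in CTRL.

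The libraries held 16076404 to 20471271 estimated reads on genes. Levels are given as CPM, reads per 1000000 on library sizes scaled by trimmed mean of M-values (TMM), and levels of different genes are set in order only as TPM, the authors' abundance corrected for transcript length. Opa1 was at 39.9, 51.9, 44.0, 57.6 and 46.9 CPM in CTRL replicates 1 to 5, and OPA1_LKO replicates 1 to 3 held 24.7, 34.4 and 34.0 CPM. The groups did not overlap; edgeR's quasi-likelihood test gave a log2 fold change of -0.63 and a Benjamini-Hochberg adjusted p of 0.0539. Because the exons removed are not given, counts over the whole gene do not measure the deletion itself. CTRL replicate 1 stood apart from the rest in a principal component analysis. Apoe, which encodes apolipoprotein E, a major secreted protein of the liver, was at 133.8 CPM in that library and at 20759 to 33179.5 CPM in the other 7. Without it, edgeR called 924 genes higher and 777 lower (Benjamini-Hochberg), against 469 and 377 with it, and of the 10 iron genes again only Slc11a2. Hamp then had a log2 fold change of 1.26 and an edgeR adjusted p of 0.105, Slc40a1 -0.43 and 0.0887, and Fth1 -0.38 and 0.178 (Benjamini-Hochberg). Opa1 then had -0.69 and an edgeR adjusted p of 0.0272 (Benjamini-Hochberg). Over 14 alternative fits Opa1 passed in 2, with an adjusted p from 0.00905 by DESeq2 to 0.236 by edgeR without OPA1_LKO replicate 1. The summed level of 6 hepatocyte markers was 63433 to 117144 CPM over the CTRL libraries, against 75495 to 94718 CPM over those of OPA1_LKO.

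Across the 10 genes, Slc11a2 fell in OPA1_LKO and was the only gene to pass the test. Hamp averaged 2.37 times the CTRL level without passing it, and Slc40a1 and Fth1 were at lower levels in each OPA1_LKO library than in any CTRL library, also without passing. By edgeR's quasi-likelihood test at a Benjamini-Hochberg adjusted p of 0.05 over all 14036 genes, 0 of the 10 were called higher and 1 lower. Over all genes 6.03% were called and 2.69% were called lower. The groups did not overlap for 3 of the 10 genes, all lower, against 16.4% of all genes in either direction and 8.41% lower. Before adjustment 4 of the 10 had an edgeR p under 0.05, against 23.8% of all genes. The median log2 fold change was -0.28 for the 10 genes and -0.03 for all genes tested. Of the 10, 4 had a positive value and 6 a negative one.

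**Figure D1:**
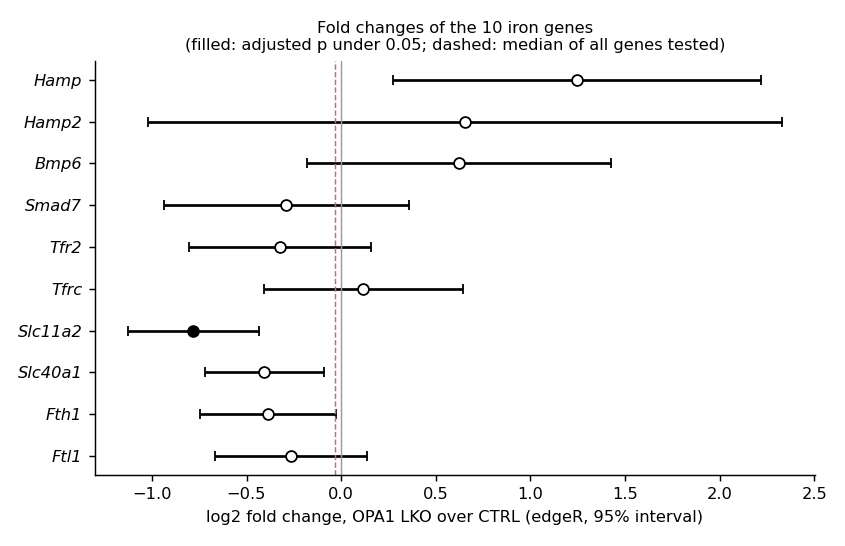
Log2 fold change of each of the 10 iron genes, OPA1_LKO over CTRL, with the 95% interval of the edgeR fit; the filled point passed an adjusted p of 0.05 and the dashed line is the median of all genes tested. Slc11a2 stands at -0.78 as the filled point, and Hamp at 1.25 has an open point with an interval from 0.27 to 2.22.

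In CTRL the order by TPM was Ftl1 (8183 ± 2185, SD, n = 5), Fth1 (3482 ± 548), Hamp (3342 ± 1637), Hamp2 (187 ± 183), Tfr2 (99.4 ± 21.2), Slc40a1 (36.8 ± 5.82), Slc11a2 (5.05 ± 1.39), Tfrc (2.81 ± 0.697), Smad7 (2.40 ± 1.24) and Bmp6 (0.792 ± 0.288). Fth1 and Hamp, Hamp2 and Tfr2, and Tfrc and Smad7 were neighbours whose mean ± SD overlapped. In OPA1_LKO Hamp was first at 8671 ± 3622 TPM (SD, n = 3), ahead of Ftl1 at 7513 ± 996 and Fth1 at 2993 ± 619, and the first 2 of these overlapped. Hamp2 (358 ± 38.8), Tfr2 (91.2 ± 17.3), Slc40a1 (31.4 ± 5.06), Slc11a2 (3.54 ± 0.490), Tfrc (3.48 ± 0.546), Smad7 (2.11 ± 0.389) and Bmp6 (1.37 ± 0.687) followed, where Slc11a2 and Tfrc, and Smad7 and Bmp6, overlapped. Hamp and both ferritin genes stood above each receptor and transporter in both groups.

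Hamp, the gene of hepcidin, was at 805, 1209, 839, 806 and 249 CPM in CTRL replicates 1 to 5. In OPA1_LKO replicates 1 to 3 it was at 2358, 915 and 2290 CPM. OPA1_LKO replicates 1 and 3 were above all CTRL libraries, while OPA1_LKO replicate 2 lay within the CTRL range, below CTRL replicate 2. The means were 782 ± 343 CPM (SD, n = 5) and 1855 ± 814 CPM (SD, n = 3). The log2 fold change was 1.25 ± 0.44 (SE, 95% interval 0.27 to 2.22); edgeR gave an adjusted p of 0.122 (Benjamini-Hochberg), which missed the threshold. The interval corresponds to 1.21 to 4.66 times the CTRL level. By DESeq2 the adjusted p was 0.0389, and over all alternatives, edgeR, limma and DESeq2 with Benjamini-Hochberg adjustment, it ran from 0.0389 to 0.372. Because whole liver was sequenced, a change in the number of cells of a type and a change in RNA per cell cannot be told apart.

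Hamp2 encodes a second peptide whose forced expression in mice does not lower body iron as hepcidin does. It was at 5.89, 17, 61.6, 155.6 and 44.7 CPM in CTRL replicates 1 to 5, and OPA1_LKO replicates 1 to 3 held 81.9, 76.1 and 110.6 CPM. CTRL replicate 4 was the highest of all libraries and CTRL replicates 1 and 2 the lowest, so that the spread within CTRL took in the OPA1_LKO values. Its log2 fold change was 0.65 ± 0.75 (SE, 95% interval -1.02 to 2.33); edgeR gave an adjusted p of 0.639 (Benjamini-Hochberg). Leaving out 1 library at a time moved the log2 fold change between 0.36 and 1.49. It was 1.55 by limma on log2(TPM + 1), with an adjusted p of 0.274, and 2.20 by edgeR with a replicate block, with an adjusted p of 0.0908 (Benjamini-Hochberg), so its size depended on the fit.

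The summed level of the pair does not depend on how reads were split between them. It was 839 ± 342 CPM over the CTRL libraries (SD, n = 5) and 1944 ± 826 CPM over those of OPA1_LKO (SD, n = 3), with p = 0.0714 by an exact two-sided permutation test. The 56 ways to divide the libraries allow no p below 0.0357. OPA1_LKO replicates 1 and 3, at 2440 and 2401 CPM, were above all CTRL libraries, and OPA1_LKO replicate 2, at 991 CPM, was below CTRL replicate 2 at 1226 CPM. The geometric mean of the sum was 2.37 times the CTRL level. The share of Hamp2 in these summed reads was 0.727%, 1.38%, 6.84%, 16.2% and 15.2% in CTRL replicates 1 to 5 and 3.35%, 7.67% and 4.61% in OPA1_LKO replicates 1 to 3. Its mean was 8.07% ± 7.37 against 5.21% ± 2.22, with an exact two-sided permutation p of 0.607. In TPM, which is corrected for length, it was 7.01% ± 6.43 (SD, n = 5) against 4.48% ± 1.92 (SD, n = 3), with the same exact p. The share varied more within CTRL than between the groups, and the 2 genes did not keep 1 ratio across libraries.

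**Figure D2:**
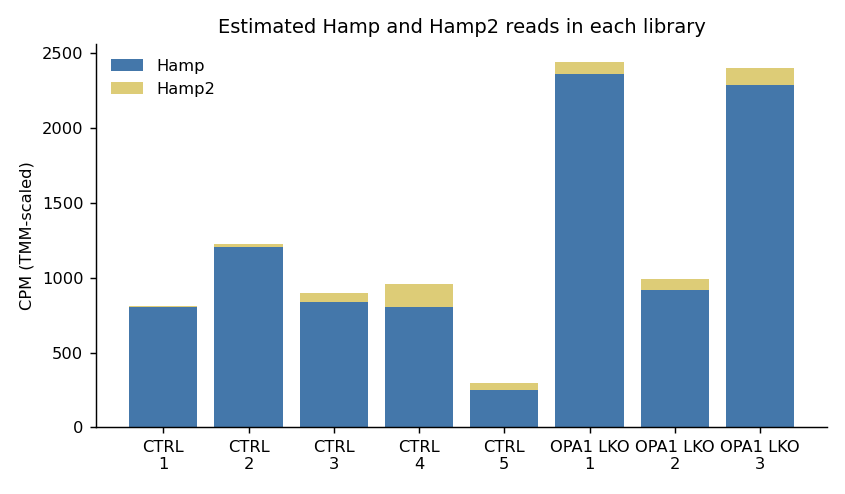
Hamp and Hamp2 in each library, stacked, in TMM-scaled CPM; each bar is 1 library. OPA1_LKO replicates 1 and 3 reach 2440 and 2401 CPM, whereas OPA1_LKO replicate 2 at 991 CPM stands among the CTRL libraries, which reach 1226 CPM.

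Bmp6 (chromosome 13, 38345716 to 38500314, GRCm38.p6) encodes the main ligand that raises Hamp with iron load. It was at 1.96, 2.53, 2.29, 1.10 and 2.98 CPM in CTRL replicates 1 to 5, and OPA1_LKO replicates 1 to 3 held 2.86, 4.99 and 2.19 CPM. OPA1_LKO replicate 2 was the highest and the other 2 lay within the CTRL range. On the log2 scale the difference was 0.62 ± 0.36 (SE, 95% interval -0.18 to 1.42); edgeR gave an adjusted p of 0.327 (Benjamini-Hochberg), and without OPA1_LKO replicate 2 the difference was 0.21. OPA1_LKO replicate 2, the library with the highest Bmp6, had the lowest Hamp of its group. It also had the highest summed level of 8 sinusoidal endothelial markers, 258 CPM, where CTRL libraries held 145 to 224 CPM and the other OPA1_LKO libraries 158 and 182 CPM. None of those 8 markers was called, none was at 0 in all libraries, and their part in the Bmp6 value was not tested. Bmp6 shares 49 bases with Txndc5, which had 1868 to 3270 reads a library.

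Smad7 (chromosome 18, 75367365 to 75395935, GRCm38.p6), an inhibitory SMAD that dampens Hamp transcription and is itself induced by BMP, was at 7.22, 13.1, 7.38, 6.65 and 4.70 CPM in the CTRL libraries, with 7.20, 6.16 and 5.80 CPM in those of OPA1_LKO. The groups overlapped, with CTRL replicate 2 apart at the top. On the log2 scale the difference was -0.29 ± 0.29 (SE, 95% interval -0.93 to 0.36); edgeR gave an adjusted p of 0.584 (Benjamini-Hochberg), and without CTRL replicate 2 the difference was -0.02.

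Tfr2 (chromosome 5, 137569822 to 137588081, GRCm38.p6), a hepatocyte receptor that senses iron-loaded transferrin and feeds into the hepcidin signal, was at 199.6 to 366 CPM in CTRL, with a median of 286 CPM, and at 205, 262 and 217 CPM in OPA1_LKO. Its log2 fold change was -0.32 ± 0.22 (SE, 95% interval -0.80 to 0.16); edgeR gave an adjusted p of 0.401 (Benjamini-Hochberg), and on log2(TPM + 1) the difference was -0.11. Tfrc (chromosome 16, 32608896 to 32632794, GRCm38.p6), the receptor that brings transferrin iron into most cells and whose transcript carries the 4 IREs, was at 9.98, 8.54, 14.4, 15.7 and 18.2 CPM in the CTRL libraries, with 13.2, 16.1 and 14.1 CPM in those of OPA1_LKO. On the log2 scale the difference was 0.12 ± 0.24 (SE, 95% interval -0.41 to 0.64); edgeR gave an adjusted p of 0.799 (Benjamini-Hochberg). Without CTRL replicate 2 its log2 fold change was -0.0091, so no direction can be given. All 3 OPA1_LKO libraries lay inside the CTRL range for both receptors.

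**Figure D3:**
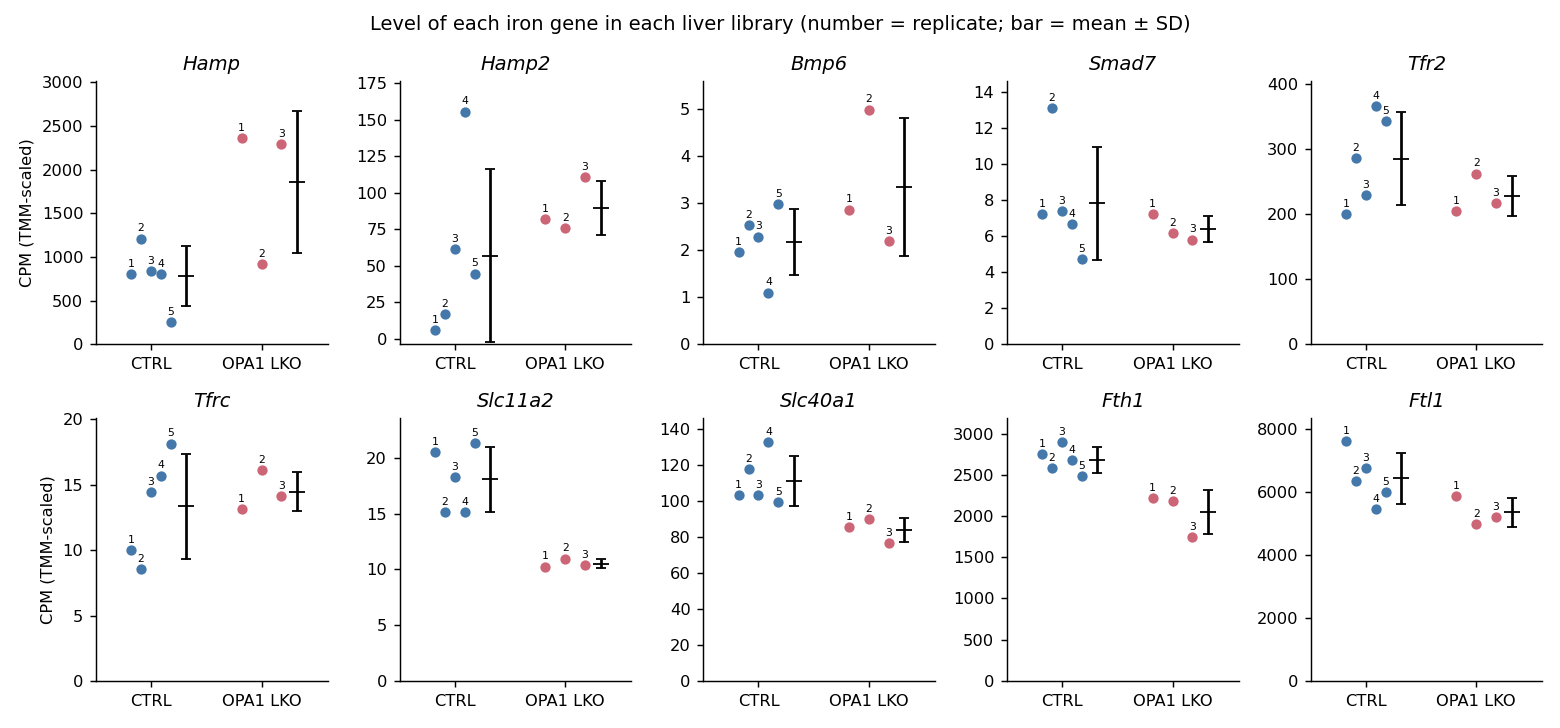
Level of each of the 10 iron genes in each library, in TMM-scaled CPM; points are libraries numbered by replicate, and bars are mean ± SD over 5 CTRL and 3 OPA1_LKO libraries. The groups are apart for Slc11a2, Slc40a1 and Fth1 and overlap for the other 7 genes.

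Slc11a2 (chromosome 15, 100387898 to 100424209, GRCm38.p6) encodes DMT1, the transporter that carries ferrous iron across the endosome membrane into the cytosol. It was at 20.6, 15.2, 18.3, 15.2 and 21.3 CPM in CTRL replicates 1 to 5, from 221 to 387 reads a library. In OPA1_LKO replicates 1 to 3 it was at 10.3, 11.0 and 10.4 CPM, from 175 to 244 reads. The 3 OPA1_LKO libraries lay close together and below all CTRL libraries. The mean fell from 18.1 ± 2.90 CPM (SD, n = 5) to 10.5 ± 0.390 CPM (SD, n = 3), which is 0.582 times the CTRL level. The log2 fold change was -0.78 ± 0.16 (SE, 95% interval -1.13 to -0.44); edgeR gave an adjusted p of 0.0193 (Benjamini-Hochberg). In TPM the groups overlapped (3.51 to 7.12 against 3.02 to 3.99), and limma on log2(TPM + 1) gave -0.39 with an adjusted p of 0.337 (Benjamini-Hochberg). The edgeR adjusted p (Benjamini-Hochberg) was 0.0993 without OPA1_LKO replicate 1 and 0.0925 without OPA1_LKO replicate 3. Over all alternatives the adjusted p ran from 0.000478 by DESeq2 to 0.337 by limma on log2(TPM + 1). Without CTRL replicate 1, the library apart, it was 0.0202 (edgeR, Benjamini-Hochberg).

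Slc40a1 (chromosome 1, 45908070 to 45926532, GRCm38.p6), the gene of ferroportin, was at 103.4, 117.7, 103.2, 132.7 and 99.5 CPM in CTRL replicates 1 to 5, and OPA1_LKO replicates 1 to 3 held 85.7, 89.9 and 76.5 CPM. The groups did not overlap in CPM. The means were 111.3 ± 13.8 CPM (SD, n = 5) and 84.0 ± 6.87 CPM (SD, n = 3). The log2 fold change was -0.41 ± 0.14 (SE, 95% interval -0.72 to -0.09); edgeR gave an adjusted p of 0.121 (Benjamini-Hochberg), which missed the threshold. In DESeq2 the adjusted p was 0.0492, the range over alternatives was 0.0492 to 0.562 (Benjamini-Hochberg), and in TPM the groups overlapped at 36.8 ± 5.82 and 31.4 ± 5.06 (-0.22 on log2(TPM + 1)). Kupffer cells, the liver macrophages, also express this exporter. The summed level of 9 Kupffer cell and macrophage markers was 172 to 842 CPM over the CTRL libraries, against 166 to 233 CPM over those of OPA1_LKO, with 0 of 9 called and none at 0 in all libraries. CTRL replicate 1 had the 842 CPM, and Slc40a1 there was the middle of the 5 CTRL values in CPM and, with CTRL replicate 2, the highest in TPM. The part of these markers in the Slc40a1 value was not tested.

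Fth1 (chromosome 19, 9980600 to 9985111, GRCm38.p6) and Ftl1 (chromosome 7, 45457944 to 45459886) encode the heavy and light chains of ferritin, the shell that stores iron, and both carry the IRE before the coding sequence. Fth1 was at 2752, 2578, 2898, 2682 and 2486 CPM in CTRL replicates 1 to 5, and OPA1_LKO replicates 1 to 3 held 2219, 2179 and 1746 CPM, with no overlap. Its log2 fold change was -0.39 ± 0.16 (SE, 95% interval -0.75 to -0.03); edgeR gave an adjusted p of 0.181 (Benjamini-Hochberg). By DESeq2 its adjusted p was 0.0272, over a range of 0.0272 to 0.620 across alternatives (Benjamini-Hochberg), and in TPM its groups overlapped (-0.23 on log2(TPM + 1)).

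Ftl1 was at 7611, 6349, 6755, 5471 and 6012 CPM in the CTRL libraries, with 5871, 4984 and 5215 CPM in those of OPA1_LKO, where OPA1_LKO replicate 1 was above the lowest CTRL library. Its log2 fold change was -0.27 ± 0.18 (SE, 95% interval -0.67 to 0.14); edgeR gave an adjusted p of 0.409 (Benjamini-Hochberg), and on log2(TPM + 1) the difference was -0.09. The ratio of Fth1 to Ftl1 in TPM was 0.435 ± 0.0482 in CTRL (SD, n = 5) and 0.397 ± 0.0533 in OPA1_LKO (SD, n = 3), with an exact two-sided permutation p of 0.321. The mix of the chains at the transcript level thus differed by less than the spread between libraries.

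The share of each transcript in its gene's TPM was compared next, since 1 annotated transcript of Slc11a2 searched held the IRE and the other did not. Of 29 transcripts listed for the 10 genes, 6 were at 0 in all libraries, and 18 from 5 genes could be compared. The groups did not overlap for 4 of the 18 shares, against 2.76% of 24887 shares over all genes. Each of the 4 had an exact two-sided permutation p of 0.0357, the smallest this design allows. None passed after Benjamini-Hochberg adjustment over the 24887 shares. With that smallest p and 2.76% of shares apart, no share of any gene could pass, so this outcome says nothing about these 4. RSEM assigns shared reads to transcripts by estimation, and shares within a gene sum to a constant.

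Of 8 Slc11a2 transcripts listed, 5 were at 0 in all libraries and 3 were compared. NM_008732, the transcript without a match, was not among the 3, so forms with and without the IRE could not be set against each other. Whether XM_006520580.2 or XM_017316495.1 carries the element was not examined. NM_001146161.1, which carries the IRE shown above, was at 1.11, 1.86, 1.34, 1.52 and 2.07 TPM in CTRL replicates 1 to 5 and at 0.400, 0.600 and 0.910 TPM in OPA1_LKO replicates 1 to 3, with no overlap. Its share was 33.3% ± 11.1 in CTRL (SD, n = 5) and 18.8% ± 10.1 in OPA1_LKO (SD, n = 3), where the groups overlapped and the exact permutation p was 0.0714. XM_006520580.2 took 22.6% ± 4.79 of the gene's TPM in CTRL and 37.0% ± 5.22 in OPA1_LKO, with no overlap, while its own TPM overlapped (1.15 ± 0.426 and 1.33 ± 0.356). XM_017316495.1 held 44.1% ± 9.45 and 44.2% ± 5.71. NM_001146161.1 had 70.2 to 149.1 estimated reads in CTRL libraries and 31.0 to 62.8 in OPA1_LKO libraries, so each of these values rests on few reads.

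For Slc40a1, NM_016917.2, the transcript with the 5′ UTR IRE, took 12.5%, 10.4%, 10.7%, 13.0% and 19.8% of the TPM in CTRL replicates 1 to 5. It took 7.24% and 7.77% in OPA1_LKO replicates 1 and 2 and was listed at 0 in OPA1_LKO replicate 3. The groups did not overlap in share or in TPM (3.11 to 6.51 in CTRL and at most 2.75 in OPA1_LKO). The main transcript, XM_006496137.2, took 84.4% ± 3.53 in CTRL and 95% ± 4.34 in OPA1_LKO with no overlap, while its TPM overlapped at 31.2 ± 6.04 and 29.7 ± 3.58. Whether XM_006496137.2 carries the element was not examined. For Tfr2, the minor transcript NM_001289507.1 took 7.11% ± 2.20 in CTRL and 2.56% ± 0.846 in OPA1_LKO, at 6.86 ± 1.69 and 2.26 ± 0.439 TPM, with no overlap in either.

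**Figure D4:**
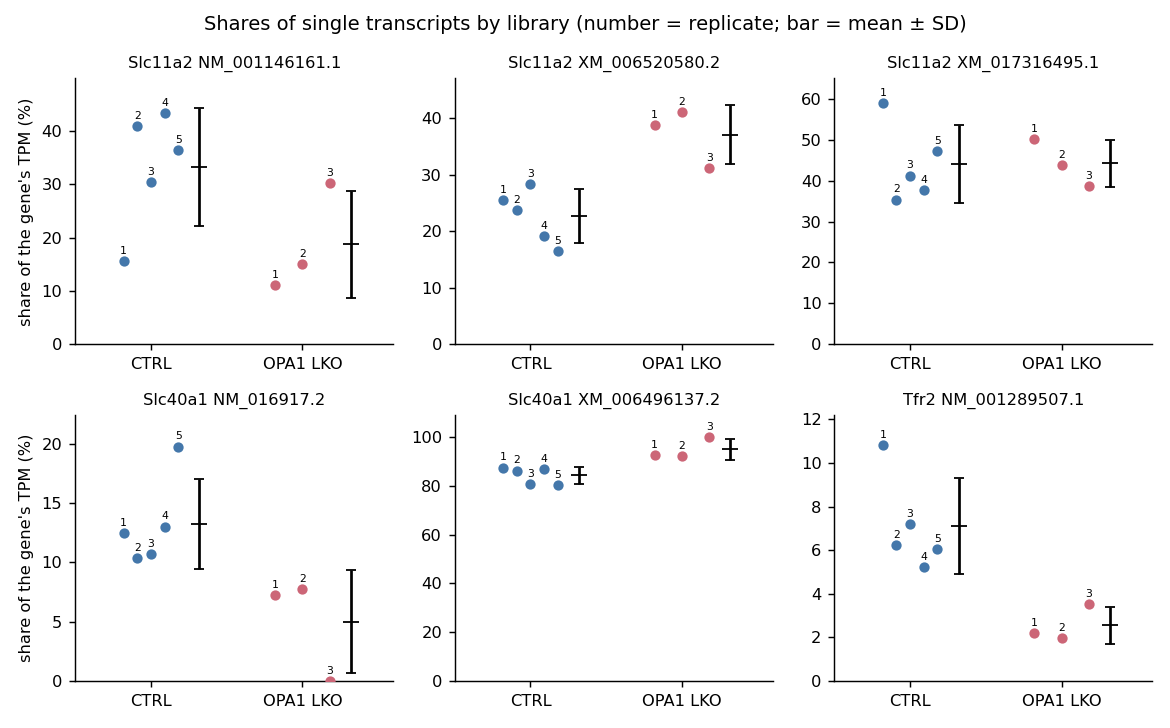
Share of single transcripts in the TPM of their gene, in percent, by library; points are libraries numbered by replicate, and bars are mean ± SD over 5 CTRL and 3 OPA1_LKO libraries. NM_016917.2 and NM_001289507.1 lie lower and XM_006520580.2 and XM_006496137.2 higher in each OPA1_LKO library, while NM_001146161.1 and XM_017316495.1 overlap.

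The other genes of iron and heme handling were read from 7 lists. Of 97 entries 92 were tested, 1 was higher and 5 were lower in OPA1_LKO by edgeR, beside the 3.34% and 2.69% of all genes. The log2 fold change was negative for 70 of the 92 and positive for 22, with a median of -0.22 against -0.03 over all genes tested. These signs come from the edgeR fit of counts, and the share of negative values over all genes was not counted. In mean TPM some of the negative genes were higher in OPA1_LKO, such as Bmpr1a (2.71 in CTRL, 2.84 in OPA1_LKO) and Pcbp2 (141 and 154). Others stayed lower in TPM, such as Alad (189 and 149) and Hp (3763 and 2333). The 7 list medians ran from -0.33 to -0.12. No test of the lists as sets was made.

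In BMP and hemojuvelin signalling, 0 of 18 tested genes were higher and 1 lower, with a median log2 fold change of -0.12. Fgl1, a liver-secreted protein known to bind BMP6 and lower hepcidin, fell from 321 ± 89.2 CPM (SD, n = 5) to 155 ± 29.7 CPM (SD, n = 3). It was at 237 to 444 CPM in the CTRL libraries, with 185, 125 and 156 CPM in those of OPA1_LKO, with no overlap. Its log2 fold change was -1.05 ± 0.24 (SE); edgeR gave an adjusted p of 0.0346 (Benjamini-Hochberg). In the inflammatory input to hepcidin, 0 of 8 passed, with a median of -0.24. Il1b, a macrophage cytokine, was at 2.72 ± 0.889 and 0.939 ± 0.509 CPM, with a log2 fold change of -1.51 ± 0.44 and an edgeR adjusted p of 0.0703 (Benjamini-Hochberg). Jak2, a kinase upstream of STAT3, was at 10.7 ± 1.27 and 8.32 ± 0.896 CPM, with an edgeR adjusted p of 0.180 (Benjamini-Hochberg).

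Among the iron regulatory proteins and other IRE genes, 0 of 8 passed and 7 had a negative value, with a median log2 fold change of -0.33. Aco1, which encodes iron regulatory protein 1, was at 133.9 ± 26.1 CPM over the CTRL libraries, against 94.1 ± 18.9 CPM over those of OPA1_LKO, with an edgeR adjusted p of 0.156 (Benjamini-Hochberg). Hao1, a peroxisomal oxidase whose transcript carries an IRE, was at 137.9 ± 41.7 and 87.9 ± 20.7 CPM, with an edgeR adjusted p of 0.172 (Benjamini-Hochberg). For both genes the groups overlapped.

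Of the genes for iron uptake, release and chaperones, 1 of 16 was higher and 1 lower, with a median log2 fold change of -0.19. Scara5, a scavenger receptor that binds ferritin, rose from 1.31 ± 0.523 CPM (SD, n = 5) to 5.44 ± 1.36 CPM (SD, n = 3), at 0.903 to 2.19 CPM over the CTRL libraries, against 3.88, 6.30 and 6.16 CPM over those of OPA1_LKO. Its log2 fold change was 2.05 ± 0.32 (SE); edgeR gave an adjusted p of 0.00782 (Benjamini-Hochberg), and it passed in all 14 alternatives, of which log2(TPM + 1) gave the smallest value, 0.98. The summed level of 7 stellate cell markers was 320 to 378 CPM over the CTRL libraries, against 393, 693 and 409 CPM in OPA1_LKO replicates 1 to 3. Of these markers 0 of 7 were called and none was at 0 in all libraries. Of 5 cholangiocyte markers, 2 were called higher by edgeR (Benjamini-Hochberg), Krt7 and Sox9. Krt7, a bile duct keratin, was at 0.875 ± 0.455 and 3.63 ± 0.773 CPM (edgeR adjusted p 0.0192). Sox9, a transcription factor of bile duct cells, was at 1.56 ± 0.554 and 5.18 ± 1.35 CPM (edgeR adjusted p 0.0161). Krt19, another keratin, went the other way without being called, with a log2 fold change of -0.503 (edgeR adjusted p 0.837). Epcam and Cldn7 were not called either, at 0.959 and 0.431 (edgeR adjusted p 0.614 and 0.875). The summed level of all 5 overlapped, at 3.29 to 48.6 CPM in CTRL and 18.6 to 27.8 CPM in OPA1_LKO. The highest CTRL sum was in CTRL replicate 3 and the next was 4.30 CPM. None of the 5 markers was at 0 in all libraries. The part of either cell type in the Scara5 value was not tested. Steap3, a ferrireductase that prepares endosomal iron for DMT1, fell from 19.2 ± 2.40 to 11.9 ± 1.73 CPM. It was at 15.1 to 21.1 CPM over the CTRL libraries, against 10.5, 13.8 and 11.3 CPM over those of OPA1_LKO, with a log2 fold change of -0.69 ± 0.16 and an edgeR adjusted p of 0.0308 (Benjamini-Hochberg). Steap3 and Slc11a2, the gene of the set that passed, both act on iron in the endosome. The pair was set side by side after the calls were seen, and a link between them was not tested.

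In mitochondrial iron and iron-sulfur cluster assembly, 0 of 21 were higher and 1 lower, with a median log2 fold change of -0.25. Bola3, which helps to pass iron-sulfur clusters to their target enzymes, fell from 56.6 ± 5.34 CPM (SD, n = 5) to 37.6 ± 5.05 CPM (SD, n = 3), with a log2 fold change of -0.59 ± 0.14 and an edgeR adjusted p of 0.0361 (Benjamini-Hochberg). In heme synthesis, all 8 tested genes had a negative value, with a median of -0.30, and 1 passed. In mean TPM Ppox alone was not lower, at 11.1 in CTRL and 11.2 in OPA1_LKO. Alad, which joins aminolevulinic acid into porphobilinogen, fell from 229 ± 24.2 to 155 ± 7.45 CPM, with a log2 fold change of -0.56 ± 0.14 and an edgeR adjusted p of 0.0435 (Benjamini-Hochberg). In heme capture and breakdown, 1 of 13 was lower, with a median of -0.20. Hp, haptoglobin, which binds free hemoglobin in plasma, fell from 4351 ± 705 to 2419 ± 330 CPM, with a log2 fold change of -0.85 ± 0.20 and an edgeR adjusted p of 0.0379 (Benjamini-Hochberg). Erythroid markers summed to 353 to 818 CPM over the CTRL libraries, against 282 to 753 CPM over those of OPA1_LKO.

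All 5 lower calls, of Fgl1, Steap3, Bola3, Alad and Hp, held without CTRL replicate 1, the library apart, and each was lost without several of the others. By edgeR with Benjamini-Hochberg adjustment, Fgl1 passed only without CTRL replicate 1 or 3, Steap3 only without CTRL replicate 1 or 3 or OPA1_LKO replicate 2, Bola3 only without CTRL replicate 1 or OPA1_LKO replicate 2, Alad only without CTRL replicate 1, and Hp only without CTRL replicate 1 or 2. The adjusted p in the leave-one-out fits that missed was 0.0507 to 0.131 for Fgl1, 0.0652 to 0.157 for Steap3, 0.0663 to 0.172 for Bola3, 0.0783 to 0.198 for Alad and 0.0550 to 0.181 for Hp (edgeR). None of the 5 passed with limma on log2(TPM + 1), and over all 14 alternatives the adjusted p (Benjamini-Hochberg) ran from a DESeq2 value of 0.00045 to 0.131 for Fgl1, from 0.00297 to 0.292 for Steap3, from 0.0017 to 0.217 for Bola3, from 0.000342 to 0.260 for Alad and from 6.55e-05 to 0.181 for Hp. The direction was lower in each of these fits.

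**Figure D5:**
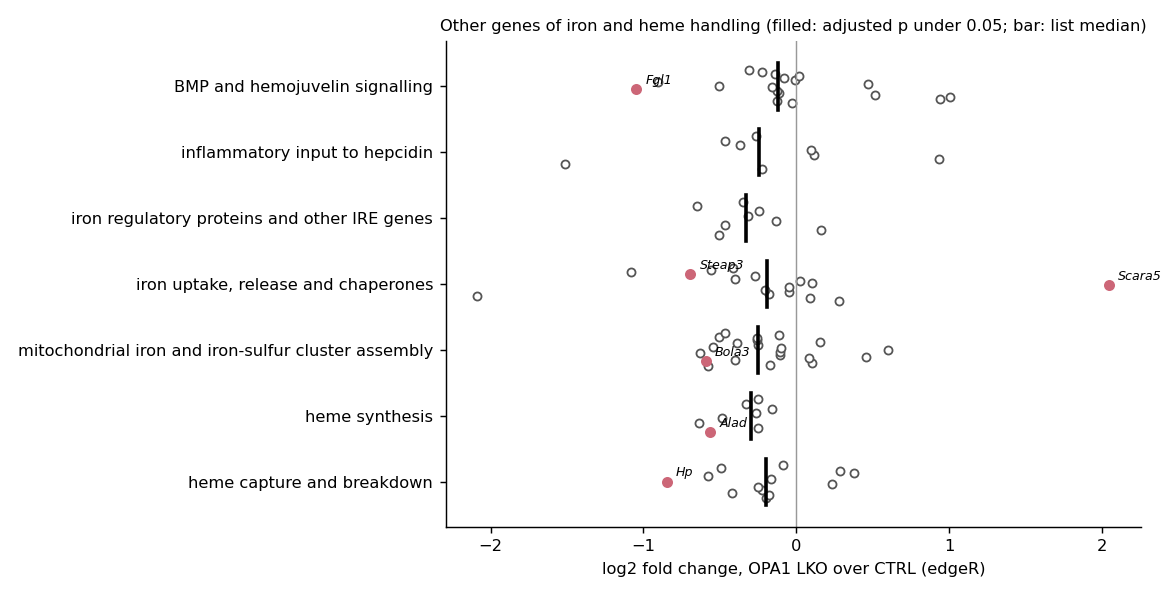
Log2 fold change of the other genes of iron and heme handling, OPA1_LKO over CTRL, by list; each point is a gene, filled where the edgeR adjusted p is under 0.05, and the bar is the list's median. Scara5 at 2.05 is the filled point on the right, and 5 filled points lie on the left, from Fgl1 at -1.05 to Alad at -0.56.

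The genes whose level followed Hamp most closely across the 8 libraries, among 12652 genes of at least 1 CPM, were Zfp157 (Pearson r = 0.98 of log2 CPM), Sra1 (0.97), Ift88 (0.97), Dtwd1 (0.96) and Stx5a (0.96). The most opposite were Sav1 (-0.97), Nrp2 (-0.93), 4931408D14Rik (-0.93), Lipa (-0.93) and 2510039O18Rik (-0.92). None of the 10 was called between the groups. Within the set, r with Hamp was lowest for Slc11a2 (-0.80) and Tfr2 (-0.63) and highest for Smad7 (0.37) and Hamp2 (0.22), and it was -0.03 for Bmp6. These values describe 8 libraries that share 2 groups and their depths, and carry no test.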

How the data were processed

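Liver RNA of 5 CTRL and 3 OPA1_LKO samples was measured. The authors deposited gene and transcript tables of expected counts, not normalised, and of TPM; STAR, RSEM, StringTie and MultiQC and build mm10 are named, without versions, per the submitters' processing notes. Libraries were stranded and poly(A)-selected, per the labels' protocols. The annotation release is not given in the sources used here.

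Gene expected counts were rounded. Genes were kept by filterByExpr (minimum count 10, total 15), scaled by trimmed mean of M-values (TMM) and tested by edgeR 4.0.16 (quasi-likelihood; R 4.3.3) on a model of group alone, and p-values were adjusted by Benjamini-Hochberg over 14036 genes. CPM are reads per 1000000 on TMM-scaled library sizes. Replicate numbers were not taken to pair the libraries. Summed levels, ratios and transcript shares (mean of at least 0.1 TPM) were compared by exact two-sided permutation over 56 divisions of the libraries. Alternatives were other size factors, no filter, DESeq2 1.42.0, limma 3.58.1 on log2(TPM + 1) or log2(TPM + 0.1), a replicate block, and leaving out each library. On simulated counts of 14036 genes, 4%, 30%, 90% and 98% of 50 genes changed 1.5-, 2-, 4- and 8-fold were recovered, and 10 of 13836 unchanged genes were called.

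The 10 genes, the lists (97 entries, all matched, some by an older symbol) and the marker lists were chosen with earlier results of these data known. Named genes were the 10 members, Opa1, the called genes of each list (at most 6) or otherwise the 2 with the smallest p, and the 5 genes most and least like Hamp. Sequences come from RefSeq (GRCm38.p6) and GENCODE M21. Upstream windows are shown for Hamp and Hamp2 alone, and 3 of the 10 genes were absent from the promoter table used. No protein sequence is shown.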

Additional observations from a re-analysis of the deposited data

Results flagged for a closer look

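Of 42 levels, ratios and shares checked in the 5 CTRL libraries, 3 had a library apart from the other 4 by a gap over 0.71 of the whole range (Dixon's 95% limit), and chance alone sets such a library apart in about 5% of groups. Il1b was highest in CTRL replicate 1, at 4.25 CPM, where the others held 1.92 to 2.58 CPM. Alad was lowest in the same library, at 187.7 CPM, against 228.7 to 245.2 CPM in the others. That library also stood apart in the principal components, held Apoe at 133.8 CPM where CTRL replicates 2 to 5 held 25200.4 to 33179.5 CPM, and had the highest summed level of Kupffer cell and macrophage markers, 842 CPM against 172 to 372 CPM in the other CTRL libraries. The share of NM_016917.2 in Slc40a1 was highest in CTRL replicate 5, at 19.8%, against 10.4% to 13.0% in the others.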

How the results depend on the processing

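Of the 10 genes, 1 was called lower and 0 higher. DESeq2 called 3 lower and 1 higher, limma on log2(TPM + 1) and log2(TPM + 0.1) called 0 lower, and leaving out 1 library gave 0 to 1 lower, with 0 without OPA1_LKO replicate 1 or 3. Tfrc alone changed sign, at -0.0091 without CTRL replicate 2 and up to 0.253 without another library. Over all genes, 469 were higher and 377 lower; DESeq2 gave 787 and 818, no filter 238 lower, limma on log2(TPM + 1) 107 lower and on log2(TPM + 0.1) 113 lower, and leaving out 1 library 144 to 924 higher and 54 to 777 lower, most without CTRL replicate 1. On the TPM scales the median log2 fold change of all genes was 0.09 and 0.14 against -0.03, and 82.5% and 79.8% of calls were higher against 55.4%. In the lists, each with 1 lower gene except the inflammatory list and the IRE list with 0, DESeq2 called 2 lower for BMP signalling, 1 for the inflammatory list, 2 for iron uptake, 5 for mitochondrial iron and 3 for heme capture. Without the filter 0 were lower for iron uptake, mitochondrial iron, heme synthesis and heme capture, and both TPM scales gave 0 lower for BMP signalling and those 4 lists. Leaving out 1 library gave 0 to 1 lower for BMP signalling, heme synthesis and heme capture, 0 to 3 for iron uptake and 0 to 4 for mitochondrial iron. The cause was not tested.

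The replicate numbers were not shown to pair the libraries: same-numbered libraries deviated together with r = 0.0720, 0.0537 and 0.175, and OPA1_LKO replicates 1 and 3 matched the CTRL library of their own number best, while replicate 2 matched CTRL replicate 5. With a replicate block, 193 genes were higher and 174 lower, 0 of the 10 genes were called, Slc11a2 had an edgeR adjusted p of 0.0669 (Benjamini-Hochberg), and 0 genes were lower in BMP signalling, iron uptake, mitochondrial iron, heme synthesis and heme capture. The summed Hamp and Hamp2 level, the Hamp2 share and the Fth1 to Ftl1 ratio kept their direction and missed the threshold in all alternatives run; with 1 library left out the exact test cannot pass. The 4 transcript shares without overlap became 4 to 5. Simulated 1.5-fold changes were recovered in 4% of 50 genes of mixed level; the smaller differences of Slc40a1 and Fth1 were not simulated.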

Other observations

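The BMP target genes measured beside Hamp did not share a direction, and the following genes were named after their values were seen. Id1 was at 17.1 ± 11.9 CPM over the CTRL libraries (SD, n = 5) and 23.7 ± 7.81 CPM over those of OPA1_LKO (SD, n = 3), Atoh8 at 24.1 ± 12.2 and 46.1 ± 14.6 CPM, and Id3 at 79.2 ± 45.9 and 42.3 ± 5.53 CPM, with edgeR adjusted p (Benjamini-Hochberg) of 0.604, 0.157 and 0.233. Bmp2, a second endothelial ligand, was at 13.5 ± 2.71 and 19.2 ± 2.79 CPM (edgeR adjusted p 0.127), and Bambi, a decoy receptor, at 3.62 ± 0.818 and 7.26 ± 3.88 CPM with no overlap (edgeR adjusted p 0.0929). Hfe2, hemojuvelin, a coreceptor on hepatocytes, was at 109.7 ± 8.55 and 77.3 ± 20.7 CPM with no overlap (edgeR adjusted p 0.121). None of these 6 passed.

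Lcn2, a siderophore-binding protein of the acute phase, was at 62.1 ± 53.6 CPM over the CTRL libraries, against 14.6 ± 0.322 CPM over those of OPA1_LKO, with no overlap, and Slc25a37, mitoferrin, which carries iron into mitochondria, at 35.1 ± 3.26 and 25.4 ± 1.90 CPM with no overlap. Their edgeR adjusted p (Benjamini-Hochberg) was 0.0762 and 0.0539, so neither passed. Trf, transferrin itself, was at 7257 ± 955 and 5456 ± 1089 CPM, with an edgeR adjusted p of 0.256 (Benjamini-Hochberg).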
